A study of Mus musculus with 8 samples.

Results

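The 8 genes described here store, carry, take up or export iron: Fth1, Ftl1, Trf, Tfrc, Slc40a1, Slc11a1, Slc11a2 and Cp. They were listed by function, as iron storage and transport genes, and not by a measured value, and all 8 were found among the 32502 genes of the 8 single-cell tables. Each table held the unique molecular identifier (UMI) counts of 1 Drop-seq library, in which single cells are caught in droplets with barcoded beads and messenger RNA is counted from its 3′ end. Mice were C57BL/6 animals by the labels (C57BL/6N in the study's methods), either wild type (Irg1/Acod1 +/+, WT) or knock-out littermates (Irg1/Acod1 -/-, KO), in which an inserted cassette interrupts, in all cells of the host, the gene for the itaconate-producing enzyme of activated macrophages. The 2 naïve libraries, 1 of each genotype, came from brains without a tumour, and their labels name 2 mice each. The 6 tumour-bearing libraries, 1 of each genotype at each stage, came from tumour tissue of 1 mouse each after 500 GL261 cells, an immortalised mouse glioma line of the same strain, had been implanted in the brain, in the right striatum by the labels and in the frontal cortex by the study's methods. Stages were set by magnetic resonance imaging as early (5 to 10 mm3), intermediate (20 to 25 mm3) and late (30 to 35 mm3). All suspensions were depleted of myelin with beads, a step that can change how many oligodendrocytes are seen. Sex differed between WT and KO at the early stage (WT female, KO male) and at the intermediate stage (WT male, KO female), both late mice were male, and for naïve mice it is not given in the sources used here, so genotype and sex cannot be told apart in the first 2 pairs.

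Iron enters most cells as iron-loaded transferrin (Trf) bound by the transferrin receptor (Tfrc), and is moved out of the endosome by the divalent metal transporter Slc11a2. In phagocytes, the related transporter Slc11a1 moves metal out of the phagosome. What is not used is held in ferritin, a hollow shell of heavy (Fth1) and light (Ftl1) subunits, and leaves the cell through ferroportin (Slc40a1), helped by ferroxidases such as ceruloplasmin (Cp). In the brain, oligodendrocytes are known for their iron content and for making transferrin, capillary endothelial cells for taking iron up from blood, and macrophages for recycling it from old red cells. Iron regulatory proteins bind a hairpin, the iron-responsive element. In a 5′ untranslated region (UTR) it lets them block translation when iron is scarce, and in a 3′ UTR it lets them protect the transcript, so part of this control leaves messenger RNA levels unchanged.

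These hairpins are shown because their place, in the 5′ or the 3′ UTR, goes with control of translation or of transcript stability. A search of the UTRs (GENCODE M21 on GRCm38, transcript strand only) for an unpaired C, 5 bases, the loop CAGTGN with A, C or T in last place, and 5 bases able to pair with the first 5 (G with T allowed) found 1 match each in the 5′ UTRs of Fth1, Ftl1 and Slc40a1 and 4 in the 3′ UTR of Tfrc. Such a match was present in the 5′ UTR of 23 of 20916 genes (0.11%) and in the 3′ UTR of 100 of 21045 (0.475%). Each match is given 5′ to 3′ over 29 bases, with the 6-base loop in capitals.
Fth1, 5′ UTR, chr19:9982732-9982760, plus strand: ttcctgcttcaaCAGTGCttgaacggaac
Ftl1, 5′ UTR, chr7:45459779-45459807, minus strand: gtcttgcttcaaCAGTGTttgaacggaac
Slc40a1, 5′ UTR, chr1:45925465-45925493, minus strand: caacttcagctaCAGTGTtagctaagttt
Tfrc, 3′ UTR, chr16:32631219-32631247, plus strand: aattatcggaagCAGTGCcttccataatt
Tfrc, 3′ UTR, chr16:32631598-32631626, plus strand: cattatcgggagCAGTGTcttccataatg
Tfrc, 3′ UTR, chr16:32631663-32631691, plus strand: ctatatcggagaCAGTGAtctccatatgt
Tfrc, 3′ UTR, chr16:32631710-32631738, plus strand: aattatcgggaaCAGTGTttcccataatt
The hairpin of Fth1 lies at base 93, that of Ftl1 at base 84 and that of Slc40a1 at base 96 of the transcript. For Trf, Slc11a1, Slc11a2 and Cp, no window with these letters was found, which says nothing of other forms of the element. On GRCm38 the 8 genes lie at chr19:9980598-9985098 (Fth1), chr7:45457944-45459884 (Ftl1), chr9:103204001-103230444 (Trf), chr16:32608920-32632794 (Tfrc), chr1:45908068-45926523 (Slc40a1), chr1:74375195-74386062 (Slc11a1), chr15:100387898-100425072 (Slc11a2) and chr3:19957054-20009145 (Cp). All 8 are annotated as protein-coding.

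The tables held 3000 barcodes and between 2885345 and 9950713 UMIs each, and 5698 cells with at least 1000 genes were kept, with a median of 2607.5 to 5642.5 UMIs per cell in the 8 libraries. Clustering gave 13 classes, which were named from marker genes and so are types only in that sense: 3392 tumour cell-like, 449 macrophage-like (the infiltrating TAM II), 377 microglia-like (in tumours, the resident TAM I), 367 oligodendrocyte-like, 328 endothelial-like and 288 astrocyte-like cells, and 7 smaller classes of 26 to 188 cells. A library entered a class value where it gave at least 5 cells. The WT intermediate library is the weak point of the myeloid classes, with 5 microglia-like and 17 macrophage-like cells. Only 2 barcodes occurred in more than 1 library among the cells kept. Acod1 itself was also counted in the libraries labelled KO: macrophage-like cells had 76 UMIs (WT early), 27 (KO early), 3 (WT intermediate), 5 (KO intermediate), 1 (WT late) and 30 (KO late). The reads come from the 3′ end of the transcript. Where they lie relative to the inserted cassette was not examined, so these counts do not check the genotype labels. By quantitative PCR, the study could not detect Acod1 in cultured bone marrow-derived macrophages of KO mice.

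By the median over naïve and tumour-bearing libraries together, macrophage-like cells led for Fth1, Ftl1 and Slc11a1. Endothelial-like cells led for Tfrc, Slc40a1 and Cp, and oligodendrocyte-like cells for Trf. Levels are UMI counts of a gene per 1000000 UMIs of the class in 1 library (CPM). They compare classes for a gene, not genes with each other, since 3′ capture differs between transcripts. Macrophage-like cells came from tumours only. For Ftl1 they stood at 52.2 to 102, below the microglia-like cells of both naïve libraries (103 and 129). Fth1, the ferritin subunit that oxidises iron for storage, was highest in macrophage-like cells (median 15800, range 13700 to 19800, 6 libraries) and oligodendrocyte-like cells (14200, 11800 to 18700, 8 libraries), whose ranges overlapped. Microglia-like cells followed at 7510 (2010 to 11500), separated from both. The remaining 10 classes had medians from 624 in neural stem cell-like to 3310 in choroid plexus epithelial-like cells, and each overlapped with the next in order. Tumour cell-like cells, at 1520 (1190 to 1530, 6 libraries), were among these lower classes.

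Trf, the iron carrier, was an oligodendrocyte transcript in these brains: 5970 (2730 to 10200) in oligodendrocyte-like cells, with no overlap with the next class, microglia-like cells at 424 (252 to 639). Macrophage-like cells (397) and choroid plexus epithelial-like cells (337) were close to microglia-like cells, and their ranges overlapped. Tfrc, the receptor, led in endothelial-like cells at 238 (164 to 488, 8 libraries), followed by tumour cell-like cells at 114 (93.5 to 189, 6 libraries) and astrocyte-like cells at 88.5, with overlapping ranges. In macrophage-like cells it was near the limit of detection, with 1 to 15 UMIs per library and a median of 15.1. The exporter Slc40a1 was found in endothelial-like (243, 27.8 to 396) and microglia-like cells (60.8, 0.0 to 208). Elsewhere it was rare, with 0 to 5 UMIs in all in each of 9 classes, 26 in macrophage-like and 38 in tumour cell-like cells. Slc11a1, the phagosomal transporter, marked the myeloid classes (macrophage-like 340, 278 to 444; microglia-like 292, 178 to 608), which overlapped with each other and with no other class. Its next medians were 3.86 in lymphocyte-like and 2.29 in tumour cell-like cells. Cp led in endothelial-like cells at 585 (347 to 659), above tumour cell-like cells at 206 (62.1 to 361), although the ranges met. Slc11a2 was low in every class, with medians of 28.7 at most and 660 of its UMIs in tumour cell-like cells.

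Ftl1, the light subunit, had few UMIs for an abundant transcript: 952 over all barcodes, beside 150196 for Fth1. Its near-identical processed copies Ftl1-ps1, Ftl1-ps2 and Ftl2-ps had 10, 13 and 49 UMIs. Whether reads shared between copies were dropped was not tested, and every Ftl1 value, above and below, is uncertain. Over the 13 classes, the genes whose mean log2 levels ran most like a member's were Adgre1, a macrophage surface receptor, for Slc11a1 (Pearson r = 0.997), Arap3 for Slc40a1 (0.971), Gm6977 for Fth1 (0.972), Rab20 for Ftl1 (0.927), Cops7a for Slc11a2 (0.91), Casp12 for Cp (0.899), Adssl1 for Trf (0.889) and Sertad2 for Tfrc (0.853). Eng, a receptor of vessel walls, stood next for Slc40a1 (0.96), and Fth-ps2, a ferritin copy, next for Fth1 (0.947). These are the nearest of 9410 genes searched over 13 points that share libraries and depth, and are given as a description.

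**Figure D1:**
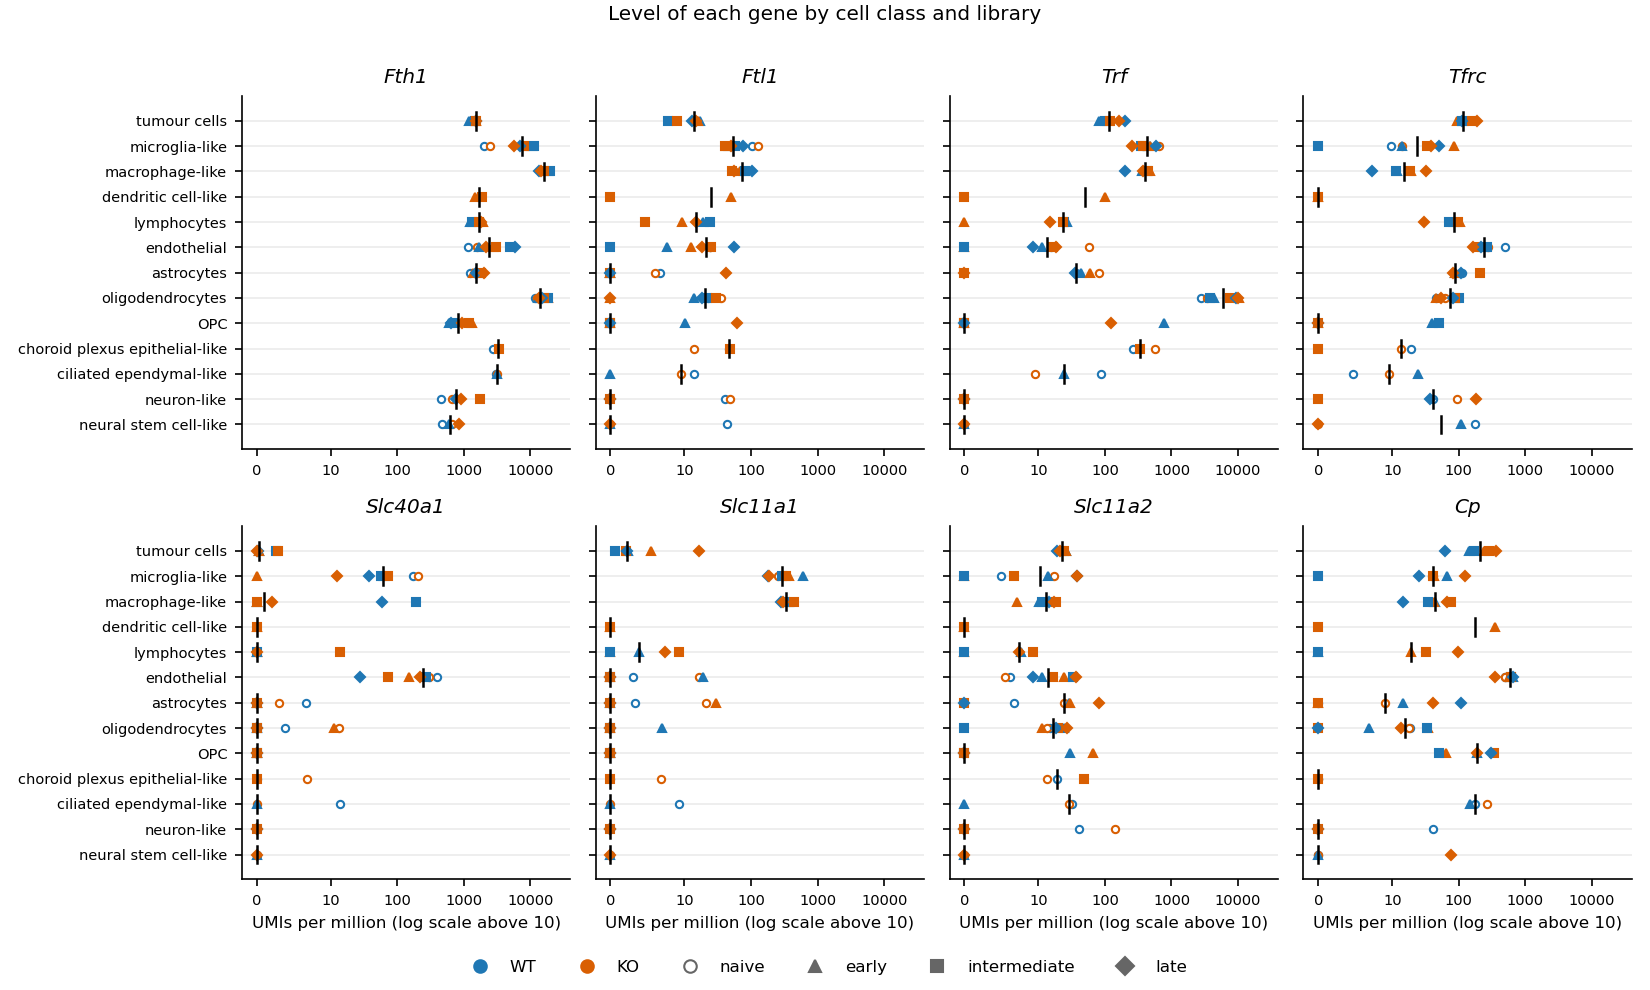
Level of each of the 8 genes (horizontal axis, CPM, log scale above 10) in the 13 cell classes, named as in the text without the suffix where it is not shown; each point is a library, coloured by genotype and shaped by stage, open for naïve, and the bar is the median. Fth1 points of macrophage-like and oligodendrocyte-like cells sit at the far right, between 11800 and 19800, and Trf stands out in oligodendrocyte-like cells alone.

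The first comparison asked how the members differed between brains with and without a tumour, class by class. In microglia-like cells Fth1 rose and Slc40a1 fell, so more transcript of the storage protein was counted alongside less of the exporter's. Fth1 stood at 2010 (WT) and 2480 (KO) CPM in the naïve libraries. In the tumour-bearing libraries it stood at 10500 (WT early), 8120 (KO early), 11500 (WT intermediate), 8160 (KO intermediate), 6900 (WT late) and 5740 (KO late). All 6 tumour-bearing libraries lay above both naïve ones. The log2 fold change was 1.89 ± 0.34 (SE), with an adjusted p of 0.00124 (edgeR quasi-likelihood test over all genes tested, 6 against 2 libraries, genotype as a covariate). The median cell went from 4 to 19 Fth1 UMIs, while the median depth of these cells went from 2307 to 3005 UMIs.

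Slc40a1 stood at 172 (WT, 35 UMIs) and 208 (KO, 60 UMIs) in naïve microglia-like cells. In tumours it stood at 64.0 (WT early, 18 UMIs), 0.0 (KO early), 57.6 (WT intermediate, 1 UMI), 74.0 (KO intermediate, 11 UMIs), 38.1 (WT late, 3 UMIs) and 12.6 (KO late, 1 UMI). Every tumour-bearing library lay below both naïve ones, although a count of 0 in the 23 cells of KO early allows a level of up to 42.3. The log2 fold change was −1.97 ± 0.47, with an adjusted p of 0.00846 in edgeR. When each cell was thinned to 1000 UMIs, 20.9% of 201 naïve cells (95% exact binomial interval 15.5 to 27.2) and 6.25% of 176 tumour-bearing cells (3.16 to 10.9) had an Slc40a1 UMI, and unthinned 35.3% and 13.6%. In naïve astrocyte-like cells 0.461% had one after thinning, at a median depth of 2629 UMIs. These 2 of the 5 members tested were called, where 525 of 3134 genes were called in all (16.8%).

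The other 3 members tested in microglia-like cells did not pass in this fit. Ftl1 stood at 103 and 129 in naïve and between 40.4 and 76.3 in tumour-bearing libraries, without overlap (log2 fold change −1.19 ± 0.42, adjusted p = 0.0580 in edgeR). It passed with at least 500 genes per cell (−1.20, adjusted p = 0.0187 in edgeR), without the genotype covariate (−1.18, 0.0392) and without WT late (−1.35, 0.0294). Trf (naïve 379 and 639, tumour-bearing 252 to 585) and Slc11a1 (naïve 254 and 296, tumour-bearing 178 to 608) overlapped, with log2 fold changes of −0.27 and 0.35. The sample numbers in the names of the tables occur in 2 sets, and whether a set is a sequencing run is not stated; with the 4 libraries of the second set alone (both naïve, WT early and KO intermediate), Slc11a1 passed at 1.01 (adjusted p = 0.00431 in edgeR). Tfrc, Slc11a2 and Cp had too few UMIs to be tested. Of 13 other iron genes tested, taken from a list of 51, 2 rose and none fell: Hmox1, which breaks down haem and frees its iron (3.11 ± 0.68, adjusted p = 0.00442 in edgeR; 10.4 and 14.8 in naïve, 37.8 to 230 in tumour-bearing libraries), and Nfe2l2, a stress-response transcription factor that switches on ferritin and Hmox1 (1.07 ± 0.32, adjusted p = 0.0272 in edgeR; 394 and 410 in naïve, 733 to 1030 in tumour-bearing libraries). Over all genes 525 of 3134 were called (16.8%), so 2 calls among 13 say little of the list. The median over all 3134 genes was 0.00159 and over the 13 iron genes 0.159 on the log2 scale.

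**Figure D2:**
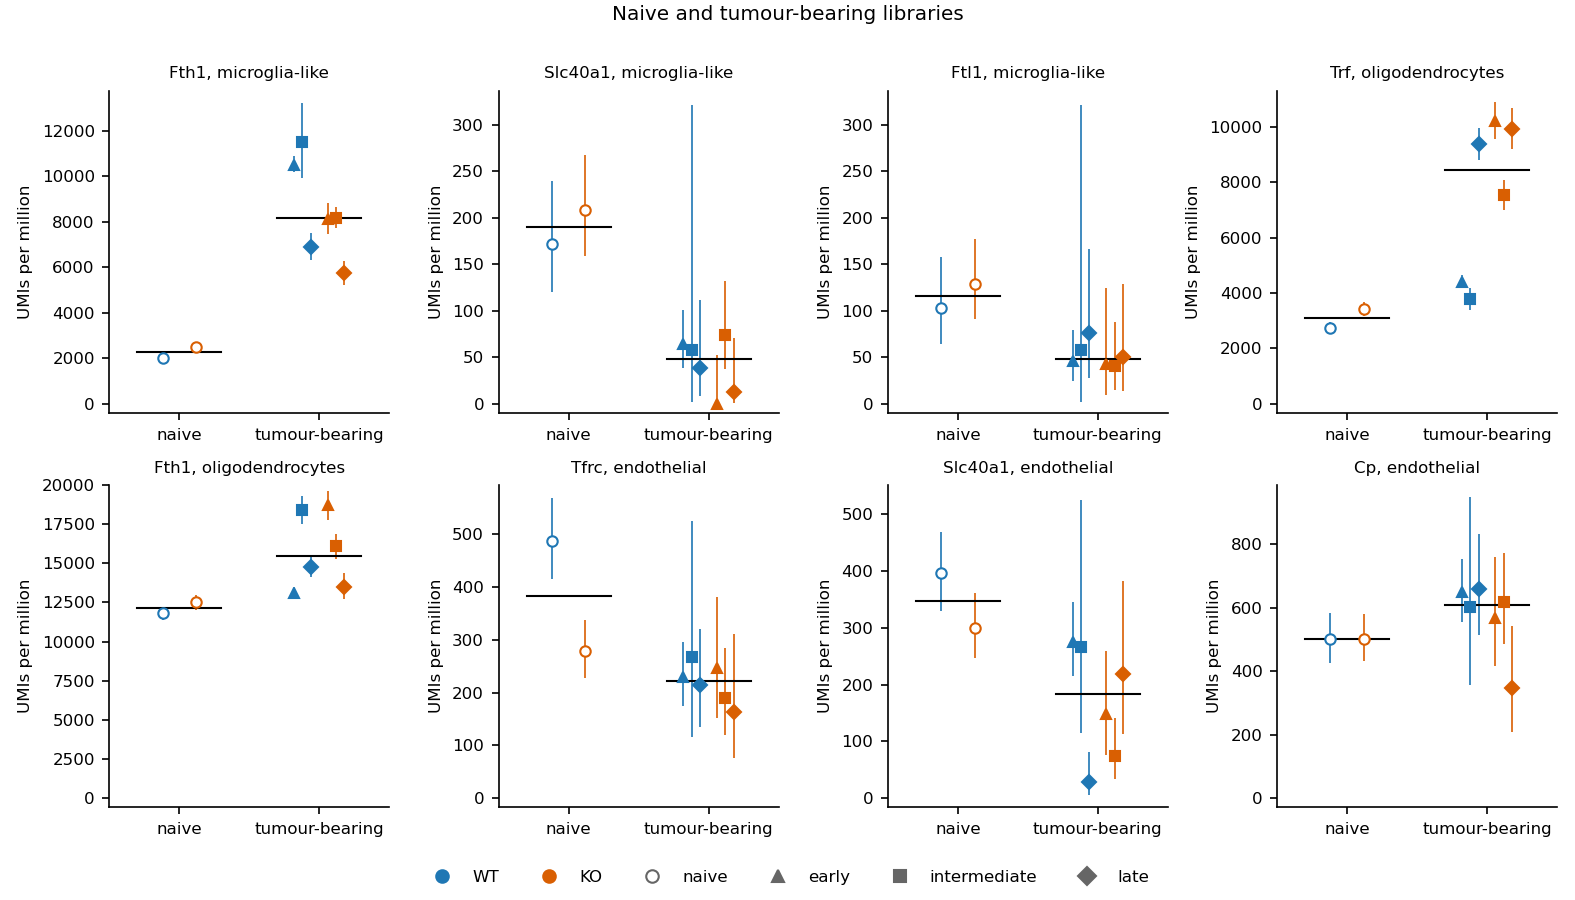
Members in naïve and tumour-bearing libraries (vertical axis, CPM of the class), with a panel per gene and class; points are libraries with exact 95% Poisson intervals, which cover counting error only, and bars are medians. In microglia-like cells the 6 tumour-bearing libraries sit above both naïve ones for Fth1 (5740 to 11500 against 2010 and 2480) and below them for Slc40a1.

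Macrophage transcripts moved with these differences. The summed level of 10 macrophage markers in microglia-like cells was 677 to 985 in naïve and 2020 to 5650 in tumour-bearing libraries, against 22300 to 33000 in macrophage-like cells, and that of 9 microglia markers was 18700 to 19500 in naïve and 6350 to 10800 in tumour-bearing libraries. In 4 of 201 naïve and 31 of 176 tumour-bearing microglia-like cells, macrophage markers had more UMIs than microglia markers. The comparison was therefore repeated, after the data had been seen, with these cells left out: Fth1 gave a log2 fold change of 1.62 ± 0.34 (adjusted p = 0.00327 in edgeR) and Slc40a1 −1.99 ± 0.49 (adjusted p = 0.00996 in edgeR). With only the cells in which macrophage markers made up less than 10% of both lists (192 naïve and 74 tumour-bearing cells, with WT intermediate left out at 1 cell), Fth1 stood at 1770 and 2400 in naïve and at 3420 (WT early), 6950 (KO early), 5130 (KO intermediate), 3780 (WT late) and 5800 (KO late) in tumour-bearing libraries. The groups still did not overlap, and the log2 fold change was 1.09 ± 0.28 (adjusted p = 0.0295 in edgeR). In the same cells Slc40a1 stood at 178 and 204 against 141, 0.0, 132, 0.0 and 24.4, too few UMIs to be tested. The Fth1 difference was thus smaller with fewer macrophage markers. For Slc40a1, WT early (141) and KO intermediate (132) stood nearer to the naïve libraries than with all cells (64.0 and 74.0). The part of other macrophage transcripts in what remained was not tested.

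**Figure D3:**
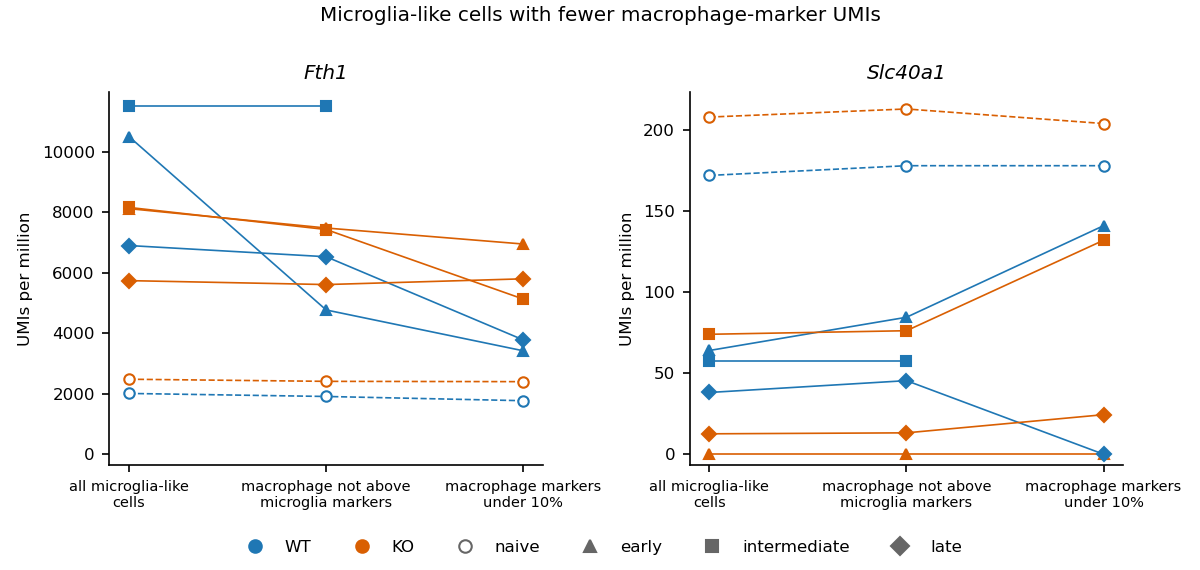
Fth1 and Slc40a1 (vertical axis, CPM) in microglia-like cells of each library: all cells, cells in which macrophage markers do not exceed microglia markers, and cells in which they make up less than 10% of both lists; lines join values of 1 library, dashed for naïve, and libraries with under 5 cells are left out. Fth1 of WT early drops from 10500 to 3420 and stays above the naïve libraries at 1770 and 2400.

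Both calls rest on 2 naïve libraries. Without WT naïve the Fth1 difference was 1.51 (adjusted p = 0.104 in edgeR) and that of Slc40a1 −2.55 (adjusted p = 0.103), and without KO naïve Slc40a1 gave −1.66 (adjusted p = 0.377). Which region of the naïve brains was taken is not given in the sources used here, so region and tumour cannot be told apart.

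In oligodendrocyte-like cells Trf rose. It stood at 2730 (WT) and 3420 (KO) in the naïve libraries and at 4410 (WT early), 10200 (KO early), 3770 (WT intermediate), 7530 (KO intermediate), 9370 (WT late) and 9920 (KO late) in tumour-bearing ones. All 6 lay above both naïve values, WT intermediate by the smallest margin, and the tumour-bearing libraries spread over a wide range among themselves. The log2 fold change was 1.24 ± 0.30, with an adjusted p of 0.0406 (edgeR). Fth1 also lay above both naïve values in all 6, at 13100 to 18700 against 11800 to 12500. It differed by less and was not called (0.36 ± 0.20, adjusted p = 0.606 in edgeR). Thus 1 of 2 members tested was called, where 61 of 2664 genes were called (2.29%), and none of 12 other iron genes was.

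Per cell, the median rose from 9 to 12 Trf UMIs and the mean from 10.3 to 22.6, with a maximum of 78 in naïve and 254 in tumour-bearing cells, so the means moved more than the medians. After thinning to 1000 UMIs, 86.8% of 144 naïve cells (80.2 to 91.9) and 96.4% of 223 tumour-bearing cells (93.1 to 98.4) held a Trf UMI, against 1.6% of lymphocyte-like cells, with median depths of 3091, 2734 and 3029 UMIs (unthinned 97.9%, 99.6% and 8.02%). The summed oligodendrocyte markers were 88100 to 89600 in naïve and 84000 to 114000 in tumour-bearing libraries. The call was lost without WT naïve (adjusted p = 0.133 in edgeR), KO naïve (0.628), KO early (0.0647) or KO late (0.111), and without the genotype covariate (0.0630), with differences of 1.05 to 1.42 in these fits.

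In endothelial-like cells, where iron crosses from blood into brain, none of the 4 members tested was called by edgeR, while 225 of 3522 genes were (6.39%). DESeq2 called none of them either. Tfrc stood at 488 (WT) and 279 (KO) in naïve and at 229 (WT early), 247 (KO early), 267 (WT intermediate), 189 (KO intermediate), 214 (WT late) and 164 (KO late) in tumour-bearing libraries. All 6 were below both naïve values, but these 2 lay further apart than the lower of them and the nearest tumour-bearing library (log2 fold change −0.77 ± 0.30, unadjusted p = 0.0215, adjusted p = 0.137 in edgeR). Slc40a1 stood at 396 and 300 in naïve and from 27.8 (WT late, 3 UMIs) to 275 (WT early) in tumour-bearing libraries (−1.10 ± 0.48, adjusted p = 0.197 in edgeR). Fth1 stood at 1140 to 1560 in naïve and 1680 to 5960 in tumour-bearing libraries (1.28 ± 0.50, adjusted p = 0.143 in edgeR), and Cp at 500 and 503 against 347 to 659 (0.21 ± 0.34, adjusted p = 0.759 in edgeR).

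Mural and tumour transcripts moved with these values. In endothelial-like cells the summed mural or fibroblast markers were 2310 to 3550 in naïve and 4590 to 12500 in tumour-bearing libraries, and the summed tumour markers 24.5 to 27.3 and 366 to 10000. Without the 19 naïve and 40 tumour-bearing cells that had more mural than endothelial marker UMIs, the log2 fold changes were 0.38 for Fth1, −0.18 for Tfrc, −0.35 for Slc40a1 and −0.31 for Cp. The part of tumour transcripts in these values was not tested. With the second set of sample numbers alone, Fth1 passed at 0.88 (adjusted p = 0.0185 in edgeR).

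Astrocyte-like cells allowed a test of Fth1 alone (1240 and 1480 in naïve, 1360 to 1990 in 5 tumour-bearing libraries; 0.24 ± 0.26, adjusted p = 0.902 in edgeR). It was not called, where 11 of 609 genes were (1.81%), and its unadjusted p was 0.366. In neuron-like cells, too few for a test, Fth1 was 449 and 666 in naïve and 768 to 1760 in 3 tumour-bearing libraries.

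Whether the tumour difference of a member was itself different between classes was tested within libraries, with 7 members tested each time. Against oligodendrocyte-like cells 55 of 5878 genes differed (0.936%), against endothelial-like cells 166 (2.82%) and against astrocyte-like cells 36 (0.612%), and no member was among them in edgeR or in DESeq2. The Fth1 difference was larger in microglia-like cells by 1.40 ± 0.55 than in oligodendrocyte-like (unadjusted p = 0.0140, adjusted p = 0.254 in edgeR), by 1.77 ± 0.58 than in astrocyte-like (0.00301 and 0.146) and by 0.60 ± 0.56 than in endothelial-like cells (0.285 and 0.722). That of Trf was lower in microglia-like than in oligodendrocyte-like cells by −1.61 ± 0.52 (0.00272 and 0.113). In microglia-like cells Tfrc had 2 and 4 UMIs in the naïve and 0 to 6 in each tumour-bearing library, too few for a test in that class alone. Against endothelial-like cells Tfrc differed, on these few UMIs, by 2.27 ± 0.70 (0.00194 and 0.0613) and Slc40a1 by −0.86 ± 0.55 (0.127 and 0.546). Some of these values passed under other settings: Fth1 against astrocyte-like cells once doublets were removed (1.91), unassigned cells dropped (1.94), sums of under 10 cells dropped (2.07) or low counts kept (1.84), Fth1 against oligodendrocyte-like cells when low counts were kept (1.53), and Tfrc against endothelial-like cells with at least 10 cells (2.43) or without WT early (2.66). In the main fits, neither the rise of Fth1 nor the fall of Slc40a1 was shown to be particular to microglia-like cells. Another scaling, by library totals, moved the median over all genes of the comparison with astrocyte-like cells from 0.161 to −0.101. The list's Lrp1, a scavenger receptor for haem-hemopexin, was the only other iron gene of 22 called in these comparisons, with a lower tumour difference in microglia-like than in endothelial-like cells (−2.17 ± 0.54, adjusted p = 0.00998 in edgeR).

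Between genotypes, the tumour difference in microglia-like cells gave no call among 4271 genes (0.0%), 41 of which had an unadjusted p below 0.05 in edgeR and 5 in DESeq2, which made no call either. The interaction was −0.60 ± 0.72 for Fth1 and −0.88 ± 1.03 for Slc40a1. With 1 naïve library per genotype, only a large difference could have been seen.

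The next comparisons set cell classes of the same tumour against each other. The classes were built from all genes, the members included, so values from cells clustered without the iron genes are given beside the main ones. Clusters of that run took the class that most of their cells had in the main clustering. A cluster of 167 cells, unnamed by its own markers, was counted as microglia-like in this way. These values are therefore not independent of the main classes. Macrophage-like cells held more Fth1 than microglia-like cells in each of the 6 libraries: 18400 against 10500 (WT early), 15300 against 8120 (KO early), 19800 against 11500 (WT intermediate), 16300 against 8160 (KO intermediate), 13700 against 6900 (WT late) and 14400 against 5740 (KO late). The difference was 1.01 ± 0.15 on the log2 scale (adjusted p = 4.31e-05 in edgeR, library as a block), and 0.97 in cells clustered without iron genes. It was the only call among 6 members tested, where 1056 of 4023 genes were called (26.2%). Slc40a1 was lower in macrophage-like cells by −1.85 ± 0.88 without passing (adjusted p = 0.136 in edgeR). Without WT intermediate, where all 17 of its macrophage UMIs came from 1 of 17 cells, this was −2.92 (adjusted p = 0.0284 in edgeR), and without WT late −2.43 (0.0364).

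Slc11a1, at 278 to 444 in macrophage-like and 178 to 608 in microglia-like cells of tumours, did not separate the 2 classes (0.11 ± 0.22, adjusted p = 0.759 in edgeR). Nor did Trf (−0.16 ± 0.23), Ftl1 (0.49 ± 0.30) or Cp (−0.24 ± 0.37), with adjusted p of 0.655, 0.243 and 0.677 in edgeR. Of 17 other iron genes tested, 3 were higher in macrophage-like cells and none lower: the biliverdin reductases Blvrb (1.29 ± 0.30; 80.3 to 203 CPM in macrophage-like and 0.0 to 115 in microglia-like cells of tumours) and Blvra (1.06 ± 0.26; 96.4 to 217 and 39.1 to 173), which act after haem breakdown, and the cystine importer Slc7a11 (1.73 ± 0.45; 16.5 to 94.9 and 0.0 to 57.6). Over all genes 1056 of 4023 were called (26.2%), so 3 calls among 17 say little of the list. With the same added rule on macrophage markers, under 10% of both lists, Fth1 differed by 1.84 ± 0.24 between the classes, Slc40a1 by −3.66 ± 1.07 and Slc11a1 by 0.73 ± 0.28, all called (adjusted p = 1.56e-07, 0.00861 and 0.0466 in edgeR). The rule takes out microglia-like cells by their macrophage markers. Genes that run with these markers must then differ more, so these larger values and calls are no further evidence. Slc11a1 was called under this rule alone.

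Tumour cell-like cells had less of the storage and myeloid genes than macrophage-like cells of the same libraries and more of the receptor and of ceruloplasmin. Of the 8 members, 7 were called, 2 higher and 5 lower, where 7626 of 13410 genes were called (56.9%), so a call alone says little here. Fth1 was 1190 to 1530 in tumour cell-like and 13700 to 19800 in macrophage-like cells (−3.76 ± 0.16, adjusted p = 1.73e-12 in edgeR). Slc11a1 was 0.627 to 16.6 against 278 to 444 (−6.76 ± 0.40), and Ftl1 7.77 to 17.3 against 52.2 to 102 (−2.70 ± 0.23). The 2 classes did not overlap for these 3 genes. Overlap was not counted over all genes, so this, and the same for Tfrc below, says little of the members. Trf was 82.5 to 198 against 197 to 472 (−1.90 ± 0.24), and the WT late values were nearly equal, at 198 and 197.

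Tfrc ran the other way, at 93.5 to 189 in tumour cell-like and 7.30 to 31.7 in macrophage-like cells (2.56 ± 0.22, adjusted p = 1.47e-08 in edgeR), and so did Cp, at 62.1 to 361 against 14.6 to 75.7 (1.80 ± 0.19, adjusted p = 1.42e-07 in edgeR). For Tfrc the 2 classes did not overlap. For Cp they did, since WT late tumour cell-like cells (62.1) lay below the macrophage-like cells of KO intermediate (75.7) and KO late (67.6), although within each library the tumour cell-like value was the higher. In cells clustered without iron genes the differences were −3.70 for Fth1, 2.49 for Tfrc, 1.81 for Cp, −6.69 for Slc11a1 and −4.60 for Slc40a1. Slc11a2 did not pass (19.4 to 26.3 against 7.08 to 18.3; 0.55 ± 0.31, adjusted p = 0.146 in edgeR), but did with unassigned cells left out (1.01) or doublets removed (0.83). Slc40a1 passed at −4.66 ± 1.09 (adjusted p = 0.00135 in edgeR), but not in DESeq2 (adjusted p = 0.0627), and it rested on few cells: 17 of 26 macrophage UMIs lay in 1 WT intermediate cell, and 20 and 14 of the 38 tumour UMIs in 1 cell each of WT intermediate and KO intermediate. The median over all genes was 0.286 on the log2 scale, and 0.597 when scaled by library totals, under which 6057 genes were higher and 2454 lower instead of 4593 and 3033 and Slc11a2 was called too. The directions of the other 7 members held under both scalings.

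Of 34 other iron genes tested between these classes, 8 were higher and 15 lower (median −0.164 over the list). Here 7626 of 13410 genes were called (56.9%), so the count says little of the list. By the rule for naming genes, the 10 with the largest differences are given. Lower in tumour cell-like cells were Nfe2l2 (−3.72 ± 0.17; 47.1 to 95.5 against 533 to 908), Lrp1 (−4.43 ± 0.22; 6.45 to 14.8 against 109 to 297), the haem-responsive repressor Bach1 (−2.66 ± 0.18; 22.8 to 40.7 against 131 to 292), the haem synthesis enzyme Alas1 (−2.79 ± 0.22; 14.6 to 22.1 against 65.7 to 149) and Slc7a11 (−3.63 ± 0.30; 4.18 to 11.2 against 16.5 to 94.9). So were Hmox1 (−3.73 ± 0.44; 8.29 to 19.7 against 50.7 to 685), the hemoglobin binder haptoglobin, Hp (−7.36 ± 0.55; 0.0 to 0.68 against 21.1 to 65.7) and Hfe, a partner of the transferrin receptor (−3.66 ± 0.39; 1.02 to 4.78 against 11.4 to 51.1). Higher were the metalloreductases Steap1, with 434 UMIs in tumour cell-like and 0 in macrophage-like cells, and Steap2, with 195 and 1. Within macrophage-like cells Hmox1 was uneven, at 685 (WT intermediate) and 657 (WT late) but 50.7 to 78.2 in the other 4 libraries, and 46 of the 60 UMIs of WT intermediate lay in 1 cell.

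**Figure D4:**
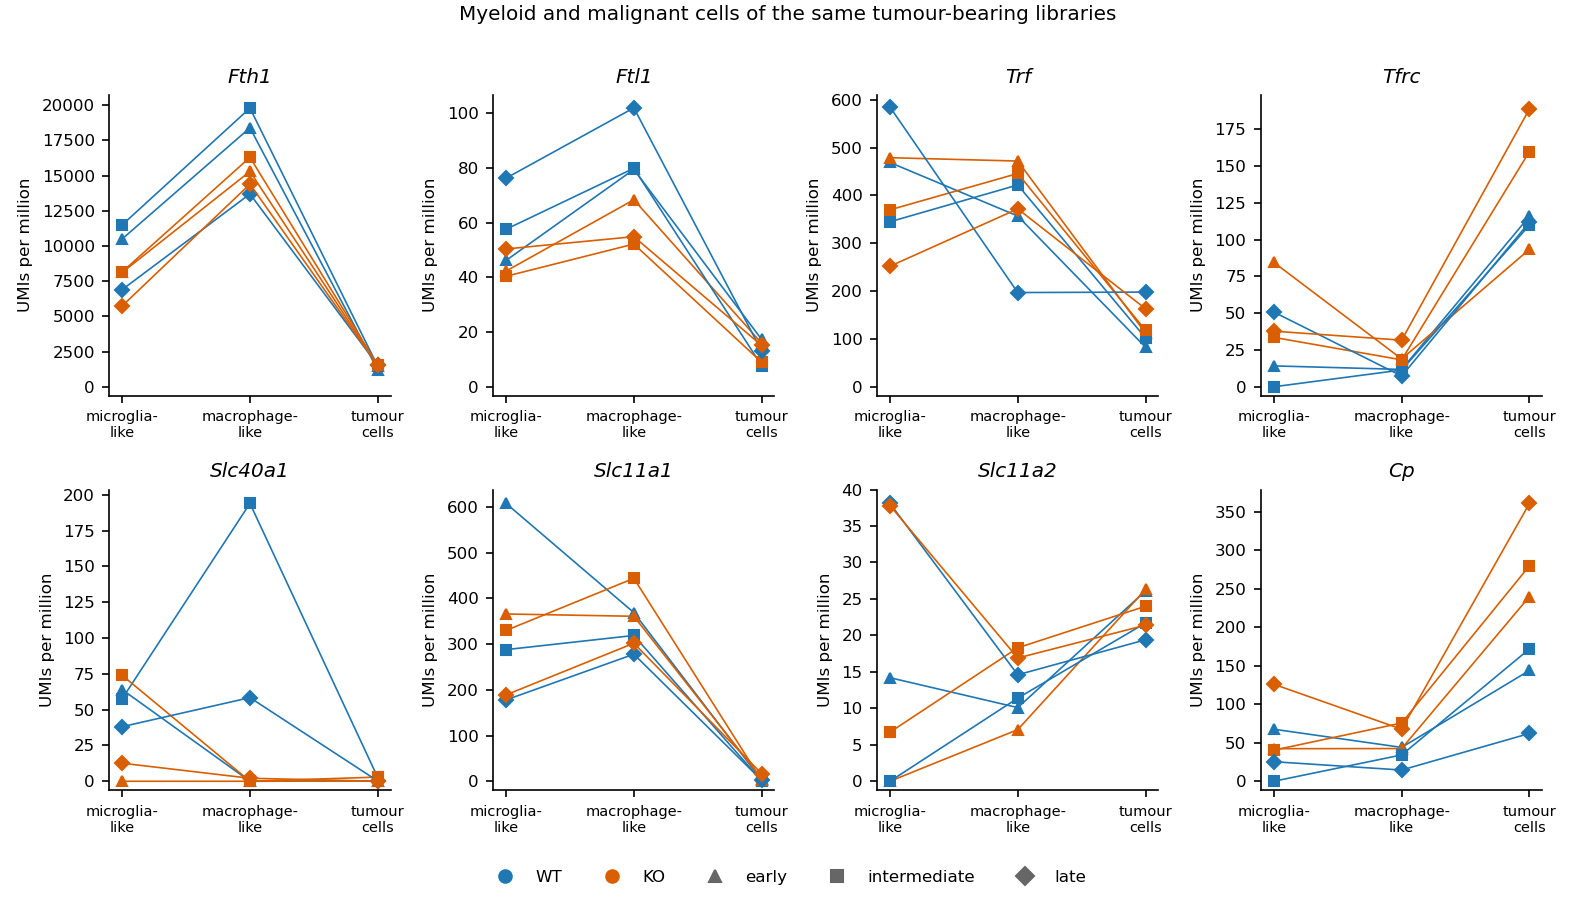
The 8 genes (vertical axis, CPM) in microglia-like, macrophage-like and tumour cell-like cells of the 6 tumour-bearing libraries; lines join the values of 1 library. Fth1 peaks in macrophage-like cells at 13700 to 19800 in all 6, while Tfrc is highest in tumour cell-like cells at 93.5 to 189.

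The last comparison was KO against WT in macrophage-like cells, the cells in which Acod1 is known to be induced, with the stage as a block. No gene of 6384 was called by edgeR (0.0%), 267 had an unadjusted p below 0.05, and DESeq2 called 7, none of them a member. Fth1 was 18400, 19800 and 13700 in WT early, intermediate and late and 15300, 16300 and 14400 in KO (−0.12 ± 0.29, unadjusted p = 0.678): lower in KO in the first 2 pairs and slightly higher in the third. The groups overlapped, and the spread between stages of WT was wider than any difference within a stage.

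Trf was 357, 422 and 197 in WT and 472, 446 and 372 in KO, higher in KO at each stage (0.49 ± 0.30, unadjusted p = 0.127). Slc11a1 was 369, 319 and 278 in WT and 361, 444 and 302 in KO (0.21 ± 0.29, unadjusted p = 0.491). Ftl1 was 79.5, 79.9 and 102 in WT and 68.4, 52.2 and 54.9 in KO (−0.51 ± 0.36, unadjusted p = 0.180), lower in KO at each stage and without overlap, but the difference was 0.43, in the other direction, with unassigned cells left out. Cp was 44.0, 34.2 and 14.6 in WT and 42.5, 75.7 and 67.6 in KO (0.81 ± 0.50, unadjusted p = 0.134). The adjusted p of each of these was 0.9998 in edgeR, so none of the differences passed the test.

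Slc40a1 had the smallest unadjusted p of the members (0.000185, adjusted p = 0.151 in edgeR; fitted log2 fold change −5.93 ± 1.11). It had 0 UMIs in WT early, KO early and KO intermediate, 17 in WT intermediate (all in 1 of 17 cells), 8 in WT late (in 5 of 28 cells) and 1 in KO late (of 116 cells). Without the early stage, where both genotypes were at 0, the adjusted p was 1.19e-06 in edgeR, and it was also past the threshold with no filter on low counts (6.07e-06) and with at least 500 genes per cell (0.0281). The value thus turns on 2 WT libraries, 1 of which holds a single cell with the transcript. Fitted fold changes of a gene at 0 in several libraries depend on the prior count. The WT late library alone had the exporter in several macrophage-like cells, at 58.4 CPM (exact interval from 25.2) against 2.11 in KO late.

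The late pair, the only one of the same sex, gave ratios with exact binomial intervals that cover counting error between 2 libraries and not between mice. KO over WT was 0.08 (0.00 to 0.15) for Fth1, 0.92 (0.33 to 1.56) for Trf, 0.12 (−0.40 to 0.68) for Slc11a1, −0.90 (−1.89 to 0.15) for Ftl1, 2.21 (0.24 to 5.32) for Cp, on 32 and 2 UMIs, and −4.79 (−10.26 to −1.89) for Slc40a1, on 1 and 8 UMIs, all on the log2 scale. Slc11a2 and Tfrc had 8 and 15 UMIs in KO late and 2 and 1 in WT late. Cp of tumour cell-like cells differed in the same direction, at 361 CPM in KO late and 62.1 in WT late. In the 1000 barcodes with the fewest UMIs it was 277 and 124. The part of tumour transcripts in the macrophage-like Cp values was not tested.

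**Figure D5:**
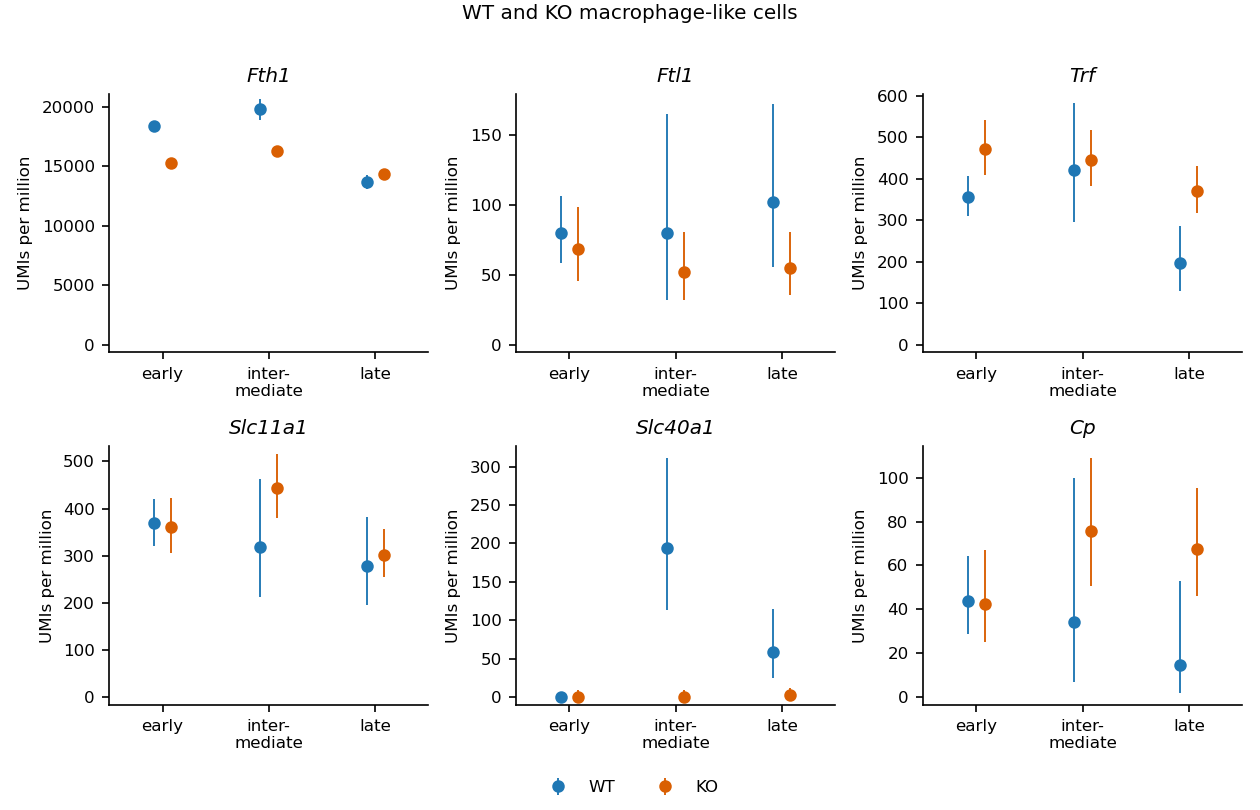
Fth1, Ftl1, Trf, Slc11a1, Slc40a1 and Cp in macrophage-like cells by stage (vertical axis, CPM); each point is 1 library, WT or KO, with its exact 95% Poisson interval, which covers counting error only. Fth1 lies between 13700 and 19800 in all 6 libraries, and Slc40a1 is above 5 CPM in WT intermediate and WT late alone.

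In microglia-like cells of tumours the same comparison called no gene of 1808 in edgeR (0.0%), with 76 at an unadjusted p below 0.05, and 1 in DESeq2, not a member. The 3 members tested gave −0.38 ± 0.35 for Fth1, −0.41 ± 0.42 for Trf and −0.26 ± 0.43 for Slc11a1, with unadjusted p of 0.282, 0.345 and 0.555.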

How the data were processed

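The values deposited are UMI counts per gene and barcode, 1 table per Drop-seq library, made by the authors with the Drop-seq pipeline. The submitters' processing notes name bcl2fastq 2.0, STAR and GRCm38 (mm10); the STAR version and the annotation are not given in the sources used here. From these counts, the 1000 barcodes with the most UMIs in each library were taken, cells with at least 1000 genes and genes found in at least 30 cells were kept, and cells were clustered on a t-SNE map (Rtsne 0.17, perplexity 50, 50 principal components) and named from marker lists. In the text all classes carry the suffix "-like"; figure labels without it are the same classes. Scrublet marked 1 to 11 cells per library, too few to rely on in 5 libraries, where the cells with the highest scores were removed instead; this removal is an alternative, and the main values keep all cells.

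Raw counts were summed per library and class (at least 5 cells) and tested with edgeR 4.0.16 (R 4.3.3; TMM, quasi-likelihood F-test, Benjamini-Hochberg adjustment over all genes tested, threshold 0.05), after removal of low counts. Naïve and tumour-bearing libraries were compared with genotype as a covariate, classes with the library as a block and genotypes with the stage as a block. DESeq2 1.42.0 was an alternative. The code was tested on simulated data. Each library is 1 sample, and nothing states separate cultures, so p-values rest on the spread between libraries. Intervals are exact (Poisson or binomial, 95%) and cover counting error only; a count of 0 allows up to 3 counts. Members were named whether called or not, although not all 8 in every comparison. Of 51 other iron genes, 47 were in the tables, and those called were named, at most the 10 with the largest change in a comparison. Genes most like a member had at least 50 CPM in 1 class and were ranked on log2(CPM + 10). Members, gene lists and tests were chosen with earlier results of these data known. UTR sequences came from the GENCODE M21 transcripts on GRCm38.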

Additional observations from a re-analysis of the deposited data

Results flagged for a closer look

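Over 32 sets of tumour-bearing libraries, each with 1 member in 1 class, 5 had 1 library that stood further from the others than the spread between those allowed, and chance alone gives about 1 in 20. Fth1 in tumour cell-like cells was 1190 CPM in WT early (3507 UMIs, 281 cells), against 1460 to 1530 in the other 5 libraries. Tfrc in astrocyte-like cells was 211 in KO intermediate (4 UMIs, 9 cells), against 82.9 to 108 in the other tumour-bearing libraries with at least 5 cells. Slc40a1 in macrophage-like cells was 194 in WT intermediate (17 UMIs, all in 1 cell), against 0.0 to 58.4. Slc11a1 in tumour cell-like cells was 16.6 in KO late (66 UMIs), against 0.627 to 5.48, and the summed macrophage markers in the same cells were 830 in KO late and 117 to 247 in the others; their part in the value was not tested. Cp in endothelial-like cells was 347 in KO late (19 UMIs, 18 cells), against 569 to 659.

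The 1000 barcodes with the fewest UMIs of the 3000 in each library were used in no comparison. In them Tfrc was 80.2 CPM in the lowest tumour-bearing library (WT early, 22 UMIs). Both naïve libraries lay just below, at 73.1 (KO, 21 UMIs) and 77.9 (WT, 21 UMIs). In the same barcodes Slc40a1 was 37.1 to 55.7 in naïve and 2.05 to 18.2 in tumour-bearing libraries. Tumour cell-like cells held Tfrc at a median of 114 CPM, and the part of their transcripts in these values was not tested.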

How the results depend on the processing

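Of 707 fold changes of members recomputed under other settings, 650 kept their direction and their side of the threshold, 25 gained and 9 lost a call, 18 changed sign and 5 fold changes with no test moved by more than their spread. In microglia-like cells, members called between tumour-bearing and naïve libraries went from 2 to 1 with under 10% macrophage markers and to 3 with at least 500 genes per cell, without the genotype covariate (both adding Ftl1) or in the second set of sample numbers (adding Slc11a1), and ranged from 0 (without WT naïve) to 3 (without WT late) when 1 library was left out. In oligodendrocyte-like cells the 1 call became 0 without the genotype covariate and 0 to 1 with a library left out. In endothelial-like cells 0 became 1 in the second set of sample numbers, which may or may not be a run. For the differences between classes, 0 became 1 against oligodendrocyte-like cells with no filter on low counts, 1 against endothelial-like cells with at least 10 cells (0 to 1 with a library left out, 1 without WT early), and 1 against astrocyte-like cells with no filter, at least 10 cells, unassigned cells left out or doublets removed. Macrophage-like against microglia-like cells gave 2 instead of 1 with no filter, at least 10 cells or at least 500 genes per cell, 3 with under 10% macrophage markers, and 1 to 2 with a library left out. KO against WT in macrophage-like cells gave 1 instead of 0 with no filter, at least 500 genes or without the early stage. The cause of these changes was not tested. Between tumour-bearing and naïve microglia-like cells with under 10% macrophage markers, Slc40a1 had too few UMIs for a test.

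No called value changed sign. Among those not called, Trf between tumour-bearing and naïve microglia-like cells became 0.05 in the second set of sample numbers and ranged from −0.86 to 0.28 (without KO naïve) with a library left out, and Slc11a1 became −0.06 and −0.25 under the 2 rules on macrophage markers, which were chosen after seeing the data, and ranged from −0.21 (without WT early) to 0.53 with a library left out. Cp in endothelial-like cells became −0.31 without mural cells, and Fth1 in astrocyte-like cells −0.14 with no filter. Between macrophage-like and microglia-like cells Trf became 0.08 with no filter, 0.07 and 0.23 under the added rules and −0.33 to 0.15 (without WT late) with a library left out, and Slc11a1 became −0.0031 clustered without iron genes, −0.06 with no library block and −0.03 (without KO late) to 0.39 with a library left out. Between genotypes, Fth1 in macrophage-like cells became 0.01 with no filter, Ftl1 0.43 with unassigned cells left out, and in microglia-like cells Trf became 0.02 without the late stage and Slc11a1 0.21 without the early stage. The labels give no replicate numbers, so no block by replicate number was fitted; blocks were the library and the stage.

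Depth limits the low members most: Tfrc, Slc11a2 and Cp had too few UMIs for a test in microglia-like cells of tumour-bearing against naïve brains, and WT intermediate gave 5 microglia-like cells.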

Other observations

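Within tumour cell-like cells, which have no naïve counterpart, Cp was higher in KO than in WT at each stage: 240 against 144 CPM (early), 280 against 172 (intermediate) and 361 against 62.1 (late). The log2 ratios were 0.74 (exact 95% interval 0.58 to 0.92), 0.70 (0.59 to 0.81) and 2.54 (2.37 to 2.71). These cells are implanted GL261 cells and carry no Acod1 allele of the host, and the intervals cover counting error between 2 libraries and not the spread between mice. Tfrc was 116 in WT and 93.5 in KO at the early stage, 110 and 160 at the intermediate stage and 112 and 189 at the late stage, with ratios of −0.31 (−0.53 to −0.09), 0.54 (0.40 to 0.68) and 0.76 (0.61 to 0.91). The sign thus differed between stages. Trf in the tumour cell-like cells of WT late held 274 UMIs in 1 cell, of 1166 in all.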
